A study of Mus musculus with 12 samples.

Results

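The genes described here are 10 members of a cluster of F-box and WD40 genes that are expressed in rodent oocytes, *Fbxw13*, *Fbxw14*, *Fbxw15*, *Fbxw16*, *Fbxw18*, *Fbxw19*, *Fbxw20*, *Fbxw21*, *Fbxw22* and *Fbxw24*. They were chosen by symbol, and all 10 were found among the 55450 genes of the count table and passed the filter on low counts that left 17715 genes for testing. The data are poly(A) RNA-seq libraries of hand-picked mouse oocytes that carry either the normal *Tbpl2* gene (WT) or the mutant *Tbpl2* allele on both chromosomes (Tbpl2-/-). The P7 oocytes came from primary follicles of mice aged 7 days, and the P14 oocytes came from secondary follicles of mice aged 14 days. Each of the 4 groups held 3 libraries, each from its own pool of 130 to 400 size-selected oocytes. The pools held 350 to 400 oocytes in P7 WT, 251 to 340 in P7 Tbpl2-/-, 144 to 260 in P14 WT and 130 to 214 in P14 Tbpl2-/-. The mutant line is a described knockout line, no treatment was given to any group, and the labels name neither a strain nor which animals went into a pool, so p-values measure the spread between these pools.

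F-box proteins are the substrate receptors of SCF ubiquitin ligases. The F-box binds SKP1, which links it to the cullin CUL1 and the RING protein RBX1, and WD40 repeats such as those of *Btrc* and *Fbxw7* hold the protein that is to be ubiquitinated. Rodents carry an expanded array of such genes whose transcripts are known from oocytes. *Fbxw15*, for example, has been described as a gene whose transcript is selective for the oocyte in the mouse ovary. TBPL2 is the oocyte paralogue of the TATA-binding protein TBP, and the question of the comparison was which oocyte transcripts depend on it.

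The 10 genes lie on the minus strand of mouse chromosome 9 (GRCm38), from *Fbxw21* at chr9:109139447-109162041 to *Fbxw18* at chr9:109676734-109702700, a span of 563 kb. Another 5 Fbxw genes stand in the same array on the same strand: *Fbxw28*, *Fbxw23* (annotated as a transcribed pseudogene) and *Fbxw25* lie between the members, and *Fbxw26* and *Fbxw27* follow *Fbxw18*. The coding sequences of the members hold 464 to 469 codons, and the 45 pairs of members were 79.7 to 92.7% identical over the coding alignment, with a median of 83.9%. The first coding bases of 4 genes of the array are printed because they show how alike the copies are, in the reading direction of the RNA, with capitals for bases that differ from *Fbxw14* or are absent from it.
Fbxw14: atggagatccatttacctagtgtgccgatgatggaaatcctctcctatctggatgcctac
Fbxw28: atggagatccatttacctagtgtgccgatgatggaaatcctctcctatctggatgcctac
Fbxw24: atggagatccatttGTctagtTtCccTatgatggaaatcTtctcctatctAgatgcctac
Fbxw18: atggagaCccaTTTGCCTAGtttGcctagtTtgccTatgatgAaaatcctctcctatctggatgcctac
*Fbxw28*, which is not a member, had the same 60 bases as *Fbxw14* and was 99.1% identical to it over the whole coding sequence. *Fbxw24* had 7 different bases. *Fbxw18* had 14 capitals in its 69 bases.

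Only reads that align to 1 place were counted in the deposited table, and reads were 50 bases long before trimming. Of the 50-base stretches of each member's transcripts, 78.5 to 94.2% were found in the transcripts of no other annotated gene, except in *Fbxw14*, where the share was 41.1% and 56.9% of the stretches were also in *Fbxw28*. *Fbxw16* had the next lowest share, and 9.23% of its stretches were in Gm42494, a predicted gene on the opposite strand that overlaps 210 bases of its exons. *Fbxw15* overlaps 168 exon bases of the antisense gene Gm42756. Tests were therefore made between groups within a gene, levels between genes are given per kb as a description only, and the counts of *Fbxw14* come from less of its transcript than those of the other members.

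The promoters are printed because TBPL2 belongs to the TATA-binding family and because the members moved together. RefSeq promoters (GRCm38.p6) were given for 8 of the 10 members, with *Fbxw13* and *Fbxw22* named only. The lines show the 65 bases that end just before the annotated start, in the direction of transcription, with the letters TTTAAAA in capitals.
Fbxw14, chr9:109287677-109287741: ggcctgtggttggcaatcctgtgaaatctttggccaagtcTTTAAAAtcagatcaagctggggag
Fbxw15, chr9:109568263-109568327: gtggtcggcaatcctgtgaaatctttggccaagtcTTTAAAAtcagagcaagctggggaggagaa
Fbxw16, chr9:109449141-109449205: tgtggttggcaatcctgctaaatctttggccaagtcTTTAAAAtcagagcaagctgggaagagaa
Fbxw18, chr9:109702701-109702765: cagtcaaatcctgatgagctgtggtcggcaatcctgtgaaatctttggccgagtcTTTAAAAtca
Fbxw19, chr9:109495855-109495919: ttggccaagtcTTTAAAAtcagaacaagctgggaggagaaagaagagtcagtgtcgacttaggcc
Fbxw20, chr9:109234755-109234819: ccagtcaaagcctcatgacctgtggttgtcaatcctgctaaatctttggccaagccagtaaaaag
Fbxw21, chr9:109162023-109162087: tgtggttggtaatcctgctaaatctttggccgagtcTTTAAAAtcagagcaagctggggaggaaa
Fbxw24, chr9:109626060-109626124: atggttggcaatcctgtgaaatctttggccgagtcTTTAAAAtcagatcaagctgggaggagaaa
The canonical letters TATAA, searched on both strands between -40 and -20 from the annotated start, were in 0 of the 8 promoters and in 4.09% of 32851 RefSeq promoters of the same length. The letters TTTAAAA, which were chosen after these promoters had been read, lay within 100 bases before the start in 7 of the 8 and in 2.74% of all promoters. Within -40 to -20 they were in 4 of the 8, against 0.721% of all promoters. Their first base stood at -30 in *Fbxw15* and *Fbxw24*, at -29 in *Fbxw16* and *Fbxw21*, at -25 in *Fbxw14*, at -10 in *Fbxw18* and at -54 in *Fbxw19*, and *Fbxw20* had no match. These distances depend on where each start was annotated. Over the 250 bases before the start the 28 pairs of members were 84.3 to 96.4% identical, with a median of 90.2%, so the 8 promoters are copies of each other and not separate observations.

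The library totals ran from 31467610 to 48030724 counts. At P7 they did not overlap between the genotypes, with 39371254 to 42249552 in WT and 31467610 to 32488444 in Tbpl2-/-. *Tbpl2* itself had 1900.5 to 2442 normalised counts in P14 WT and 75.3 to 83.3 in P14 Tbpl2-/-. At P7 WT libraries had 3027 to 3317 and mutant libraries 75.2 to 117, so all 12 libraries went with their labels. A normalised count is the count divided by a size factor of the library, by the authors' median-of-ratios method. All 14 oocyte markers were present. Their summed level fell with the members, from 2012920 to 2381120 in P14 WT to 735084 to 932051 in P14 Tbpl2-/-. At P14 10 of 14 were lower and 2 higher, where 27.8% of all tested genes were lower and 29.9% higher. The 2 higher were *Sohlh1* (means of 318 in WT and 5759 in Tbpl2-/-, log2 fold change 4.20 ± 0.24, SE) and *Figla* (1559.5 and 3222.5, 1.07 ± 0.18). Not all oocyte markers thus fell, and whether the oocytes of the 2 genotypes were at the same stage of growth was not tested. At P7 8 were lower and 3 higher, *Sohlh1* among them (log2 fold change 2.84 ± 0.22, SE), where 28.9% of all tested genes were lower and 30.5% higher. The 17 granulosa cell markers summed to 4976 to 5298 in P14 WT and 5093 to 5667 in P14 Tbpl2-/-. Much of that sum was *Esr2*, with means of 2684 and 2884 in these groups. Of the 16 tested, 1 was lower and 3 higher at P14. At P7 the sums were 3843 to 4807 in WT and 2291 to 2830 in Tbpl2-/-. There 11 of the 16 tested were lower and 0 higher, against 28.9% and 30.5% of all tested genes. The 10 theca and stroma markers summed to at most 199.7 in any library, and of the blood markers *Ptprc*, *Adgre1*, *Hbb-bs* and *Hba-a1* averaged under 10 normalised counts in every group. The 4 endothelial markers summed to 3199.7 to 3875 in P14 WT and 947 to 1160 in P14 Tbpl2-/-, with *Cdh5* under 10 in every group. The other 3 did not go the same way at P14. *Pecam1* (mean 2491 in WT and 439 in Tbpl2-/-) and *Tek* (1082 and 500) were lower, and *Kdr* (49.8 and 94.2) was higher. The part of these marker differences in the results below was not tested, and in pooled oocytes fewer cells and less RNA per cell cannot be told apart.

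In WT oocytes the members were abundant. Their summed counts made up 0.754% ± 0.0550 of a P7 WT library and 0.838% ± 0.0853 of a P14 WT library (mean ± SD, n = 3). Among the mutant libraries it was 0.133% ± 0.00477 at P7 and 0.205% ± 0.0229 at P14. These shares of the raw counts involve no size factor, and the lowest WT library (0.708% at P7 and 0.750% at P14) stood far above the highest mutant library (0.137% and 0.231%). Per kb of the median transcript length in the deposited table, all 10 members stood among the first 1000 genes of the table in WT at both stages and 1 of them, *Fbxw24*, did so in Tbpl2-/- at both stages.

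*Fbxw24* had the highest level per kb in every group. In P14 WT it had 81779.5 ± 13427 normalised counts per kb, which ranked it 24th of all genes, followed by *Fbxw15* with 50921 ± 7219, *Fbxw21* with 30227 ± 3383 and *Fbxw18* with 26218 ± 3183. Libraries of *Fbxw24* and *Fbxw15* did not overlap, nor did those of *Fbxw15* and *Fbxw21*, whereas *Fbxw21* and *Fbxw18* overlapped. *Fbxw16*, *Fbxw20*, *Fbxw14* and *Fbxw19* followed at 19936, 19008, 17631 and 15682 per kb, each overlapping its neighbour in this order. *Fbxw22* and *Fbxw13*, at 11505 and 10440.1 per kb, were the lowest and overlapped as well. The lengths are medians over annotated transcripts, and for *Fbxw13*, *Fbxw14*, *Fbxw15* and *Fbxw21* they are shorter than the coding sequence (1287, 995.5, 927 and 1153.5 bases against 1398, 1398, 1398 and 1404), which raises their values per kb. Per kb of 50-base stretches that no other gene shares, *Fbxw24* and *Fbxw15* were still the first and second in P14 WT, with 89740.3 and 36507, but *Fbxw21* stood behind *Fbxw18*, *Fbxw16* and *Fbxw14*. *Fbxw19* was then the lowest, with 8900.0 against 9822 for *Fbxw13* and 10694 for *Fbxw22*, so the order below the first 2 depends on the length used.

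**Figure D1:**
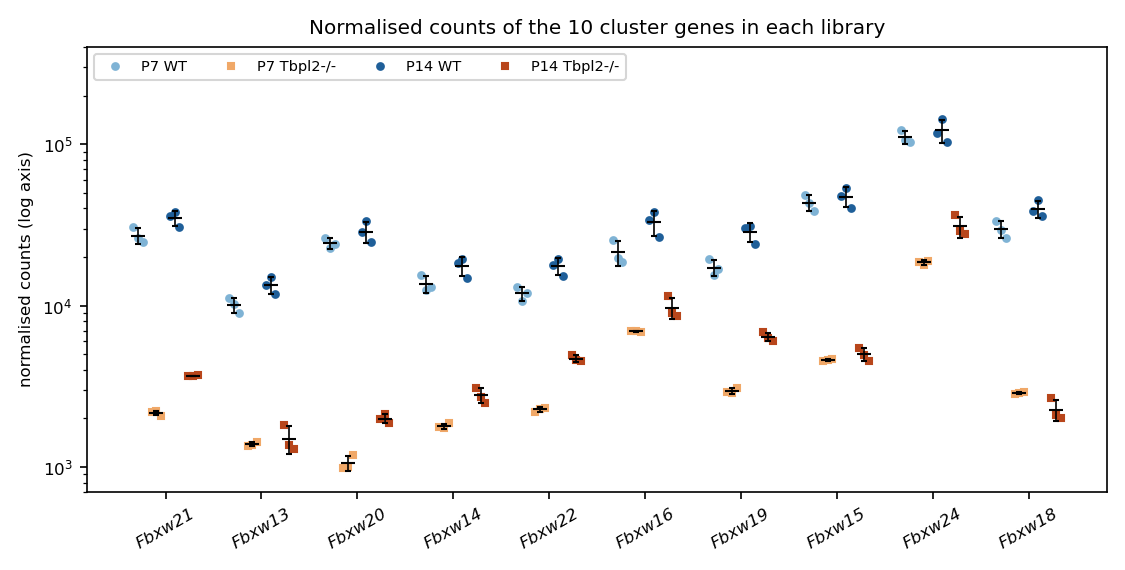
Normalised counts (log axis) of the 10 genes in the 12 libraries, in chromosomal order, with circles for WT and squares for Tbpl2-/-, and black marks for the mean ± SD of 3 libraries. All WT libraries lie above all Tbpl2-/- libraries of the same stage in each gene, and *Fbxw24* is the highest gene with 103845 to 143274 in P14 WT.

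All 10 members were lower in Tbpl2-/- oocytes at both stages, each more than 3-fold. At P14 edgeR's quasi-likelihood test with Benjamini-Hochberg adjustment over 17715 genes called 10 of 10 lower and 0 higher, where 27.8% of all tested genes were lower and 29.9% higher. All 10 were lower by more than 2-fold, against 14.6% of all genes, and in all 10 the mutant libraries lay below the WT libraries, against 31.4%. At P7 the test likewise called 10 lower and 0 higher, against 28.9% lower and 30.5% higher, with 10 more than 2-fold lower against 17.1% and 10 without overlap against 31.1%. The median log2 fold change of the members was -2.89 at P14 and -2.88 at P7, and that of all tested genes was 0.07 and 0.02. No member was higher at an unadjusted p under 0.05, and DESeq2 called the same 10 lower and 0 higher. With the library size as the only scaling, which moved the median of all genes at P14 from 0.07 to 0.48 and the split of calls from 4932 lower and 5292 higher to 2962 and 8262, the member median was -2.48 and the same 10 were called lower. At P7 that scaling turned 5111 lower and 5403 higher into 3697 and 7203, moved the median of all genes to 0.29 and gave a member median of -2.60.

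The level left in the mutant differed among the members, from 4.35% of the WT mean for *Fbxw20* to 32.4% for *Fbxw16* at P7, and from 5.68% for *Fbxw18* to 29.5% for *Fbxw16* at P14. By the fitted fold change 6 members were more than 5-fold lower at both stages: *Fbxw13*, *Fbxw14*, *Fbxw15*, *Fbxw18*, *Fbxw20* and *Fbxw21*. *Fbxw16*, *Fbxw19*, *Fbxw22* and *Fbxw24* were 3.34-fold to 4.42-fold lower at P14, and at P7 3.05-fold lower for *Fbxw16* and 5.18-fold to 5.92-fold lower for the others.

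*Fbxw20* fell the most at P7. The P7 WT libraries held 26336, 22669 and 24106 normalised counts of *Fbxw20*, and the P7 mutant libraries 988, 1004 and 1192. The 2 groups did not overlap, and the mutant libraries were low throughout. The log2 fold change was -4.50 ± 0.14 (SE) at P7 (adjusted p = 5e-12). Its P14 values were 28403, 33173 and 24585 normalised counts in WT and 1968, 2125 and 1884 in Tbpl2-/-. The mutant libraries lay close together and far below the WT ones, and the log2 fold change was -3.83 ± 0.14 (SE) at P14 (adjusted p = 2.75e-11). Among the 8 members with a printed promoter only *Fbxw20* lacked TTTAAAA, and any link to its loss was not tested.

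*Fbxw18* fell the most at P14. *Fbxw18* was at 38395, 45213 and 35867 normalised counts in the P14 WT libraries and at 2659, 2111 and 2014 in their mutant counterparts. Every mutant library was far below every WT library, and the log2 fold change was -4.12 ± 0.14 (SE) at P14 (adjusted p = 2.75e-11). Normalised counts at P7 were 33225, 29556 and 26189 in WT and 2827, 2882 and 2914 in Tbpl2-/-. The P7 groups were also far apart, and the 3 mutant libraries were nearly equal. The log2 fold change was -3.35 ± 0.14 (SE) at P7 (adjusted p = 4.59e-11).

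*Fbxw21* and *Fbxw15*, at the low end and in the middle of the array, were lower by nearly the same amount at P14. At P14 *Fbxw21* had 36020, 38062 and 30517 normalised counts in the WT libraries and 3666, 3651 and 3685 in the Tbpl2-/- libraries. The mutant libraries were nearly equal, and the log2 fold change was -3.23 ± 0.12 (SE) at P14 (adjusted p = 2.93e-11). The P7 WT libraries held 30574, 26171 and 24676 normalised counts of *Fbxw21*, and the P7 mutant libraries 2174, 2212 and 2079. The change was larger in size, -3.64 ± 0.12 (SE) at P7 (adjusted p = 7.13e-12).

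For *Fbxw15*, the second most abundant member, the groups were equally far apart at both stages. Its P14 values were 47906, 53516 and 40188 normalised counts in WT and 5487, 4907 and 4541 in Tbpl2-/-. *Fbxw15* was at 48516, 43489 and 38261 normalised counts in the P7 WT libraries and at 4506, 4582 and 4684 in their mutant counterparts. Every mutant library was far below every WT library at both stages. Log2 fold changes were -3.22 ± 0.13 (SE) at P14 (adjusted p = 1.01e-10) and -3.22 ± 0.13 (SE) at P7 (adjusted p = 4.58e-11).

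*Fbxw13*, which lies next to *Fbxw21*, was among the less abundant members in P14 WT. Normalised counts at P14 were 13391, 15049 and 11868 in WT and 1823, 1372 and 1294 in Tbpl2-/-. At P7 it had 11146, 10229 and 8952 normalised counts in the WT libraries and 1353, 1368 and 1423 in the Tbpl2-/- libraries. Replicate 1 of the P14 mutant was the highest of its group, and still below every WT library. Its fitted log2 fold change was -3.15 ± 0.14 (SE) at P14 (adjusted p = 1.89e-10) and -2.85 ± 0.14 (SE) at P7 (adjusted p = 3.32e-10).

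*Fbxw14*, the member with the most transcript stretches in common with another gene, fell by a middle amount. The P14 WT libraries held 18293, 19457 and 14906 normalised counts of *Fbxw14*, and the P14 mutant libraries 3083, 2729 and 2500.0. Its P7 values were 15399, 12426 and 12968 normalised counts in WT and 1761, 1747 and 1858 in Tbpl2-/-. The groups did not overlap at either stage. Its log2 fold change was -2.64 ± 0.13 (SE) at P14 (adjusted p = 3.27e-10) and -2.91 ± 0.13 (SE) at P7 (adjusted p = 1.21e-10). *Fbxw28* had log2 fold changes of -2.92 ± 0.13 at P14 and -3.41 ± 0.13 at P7 (SE).

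*Fbxw24*, the most abundant member, kept 16.7% of its WT mean at P7 and 25.4% at P14. *Fbxw24* was at 117945, 143274 and 103845 normalised counts in the P14 WT libraries and at 36232, 28808 and 27627 in their mutant counterparts. Normalised counts at P7 were 122727, 106394 and 103265 in WT and 18669, 17873 and 18917 in Tbpl2-/-. The 3 mutant libraries at P7 were close to each other, and replicate 1 of the P14 mutant stood above the other 2. Fitted log2 fold changes were -1.96 ± 0.13 (SE) at P14 (adjusted p = 1.13e-08) and -2.57 ± 0.14 (SE) at P7 (adjusted p = 6.49e-10).

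*Fbxw16* kept the most of its WT level. At P14 it had 33865, 37903 and 26705 normalised counts in the WT libraries and 11396, 9048 and 8627 in the Tbpl2-/- libraries. The P7 WT libraries held 25533, 19755 and 18697 normalised counts of *Fbxw16*, and the P7 mutant libraries 6955, 6935 and 6824. The highest mutant library was below the lowest WT library at both stages, and the WT libraries were more spread than the mutant ones. It fell by log2 fold changes of -1.74 ± 0.15 (SE) at P14 (adjusted p = 1.07e-07) and -1.61 ± 0.15 (SE) at P7 (adjusted p = 2.19e-07).

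*Fbxw22* and *Fbxw19* lie on either side of *Fbxw16* in the array and were also among the less affected. The P14 values of *Fbxw22* were 17833, 19394 and 15289.8 normalised counts in WT and 4937, 4571 and 4559 in Tbpl2-/-. *Fbxw22* was at 13038, 10674 and 12026 normalised counts in the P7 WT libraries and at 2195, 2285 and 2332 in their mutant counterparts. The mutant level at P14 was higher than at P7 in every library. The log2 fold change of *Fbxw22* was -1.88 ± 0.11 (SE) at P14 (adjusted p = 2.6e-09) and -2.37 ± 0.11 (SE) at P7 (adjusted p = 2.44e-10).

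*Fbxw19* followed the same course. Normalised counts at P14 were 30333, 31225 and 24229 in WT and 6810.1, 6264 and 6060.1 in Tbpl2-/-. At P7 it had 19384, 15443 and 16722 normalised counts in the WT libraries and 2902, 2874 and 3096 in the Tbpl2-/- libraries. No library of one group overlapped another group. The test gave log2 fold changes of -2.14 ± 0.12 (SE) at P14 (adjusted p = 1.52e-09) and -2.52 ± 0.12 (SE) at P7 (adjusted p = 2.83e-10).

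**Figure D2:**
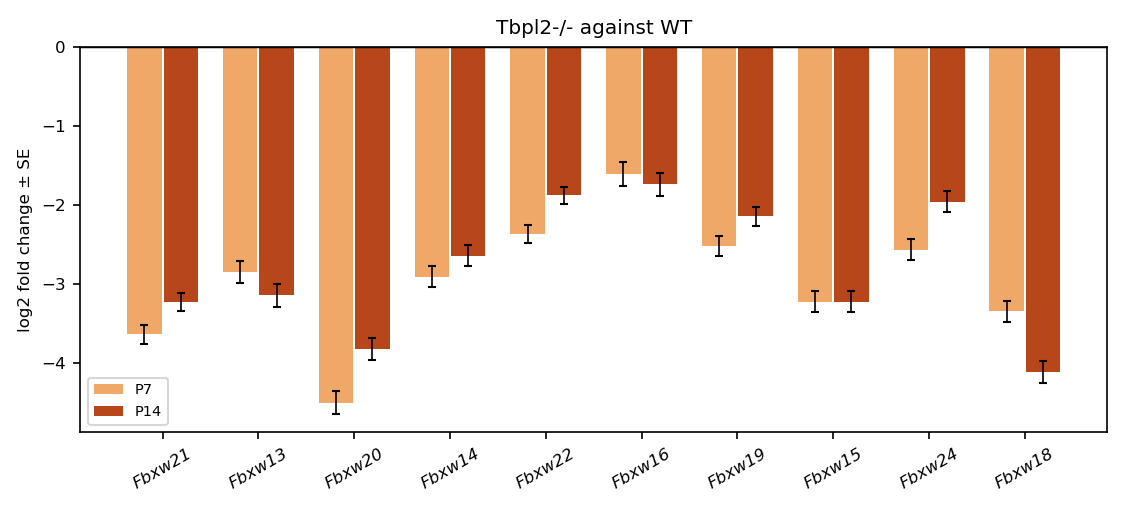
Log2 fold change of Tbpl2-/- against WT for each member at P7 and P14, with bars for the edgeR estimate and whiskers for its SE. Every bar is below 0, from -1.61 for *Fbxw16* to -4.50 for *Fbxw20* at P7 and from -1.74 for *Fbxw16* to -4.12 for *Fbxw18* at P14.

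The genotype effect differed between the stages in 4 members, in opposite directions. The interaction, the log2 fold change at P14 minus that at P7, was positive in *Fbxw20* (0.68 ± 0.17, adjusted p = 0.0103), *Fbxw24* (0.61 ± 0.18, adjusted p = 0.0234) and *Fbxw22* (0.49 ± 0.15, adjusted p = 0.0261), so these 3 were less reduced at P14. It was negative in *Fbxw18* (-0.77 ± 0.18, adjusted p = 0.00642), which was more reduced at P14. Over all tested genes 13.6% had a positive and 14.3% a negative interaction past the same threshold, and the member median of 0.32 stood beside 0.04 for all genes. The calls of *Fbxw20* and *Fbxw18* held without any 1 of the 12 libraries. That of *Fbxw22* was lost without P14 WT replicate 1 (adjusted p = 0.0562) or replicate 3 (0.0683). That of *Fbxw24* was lost without P14 WT replicate 1 (0.0618), P14 WT replicate 3 (0.0595) or P7 Tbpl2-/- replicate 2 (0.0519). The other 6 members did not pass, and *Fbxw15* had a log2 fold change of -3.22 at both stages.

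The ratio of *Fbxw18* to *Fbxw24* within each library, which no size factor touches, is given as a description. This pair was chosen after the values had been seen, so the ratio restates them and is no separate support. It also does not show which gene of the pair changed. *Fbxw18* had 27.1, 27.8 and 25.4% of the normalised count of *Fbxw24* in the P7 WT libraries, against 15.1, 16.1 and 15.4% in the mutant of that stage. At P14 it had 32.6, 31.6 and 34.5% in WT and 7.34, 7.33 and 7.29% in Tbpl2-/-. The ratio was higher at P14 than at P7 in WT and lower at P14 than at P7 in the mutant, with no overlap between any of the 4 groups.

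The make-up of the summed member counts was different in the mutant at both stages. *Fbxw24* took 35.8% ± 0.322 of the sum in WT against 41.6% ± 0.654 in the mutant at P7. At P14 the values were 31.8% ± 1.00 and 44.8% ± 1.42. *Fbxw16* took 6.86% ± 0.456 and 15.5% ± 0.418 at P7, and 8.14 to 8.86% and 13.7 to 14.6% at P14. The shares of *Fbxw16*, *Fbxw19*, *Fbxw22* and *Fbxw24* were larger in every mutant library than in every WT library at both stages. *Fbxw20* took 7.89% ± 0.466 of the sum in WT against 2.38% ± 0.216 in the mutant at P7, and 7.51% ± 0.0888 against 2.92% ± 0.366 at P14. The shares of *Fbxw14*, *Fbxw15*, *Fbxw18*, *Fbxw20* and *Fbxw21* were smaller in every mutant library at both stages, and that of *Fbxw13* was smaller without overlap at P14 only. Since shares add up to the whole, these shifts show unequal loss and not which gene changed.

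**Figure D3:**
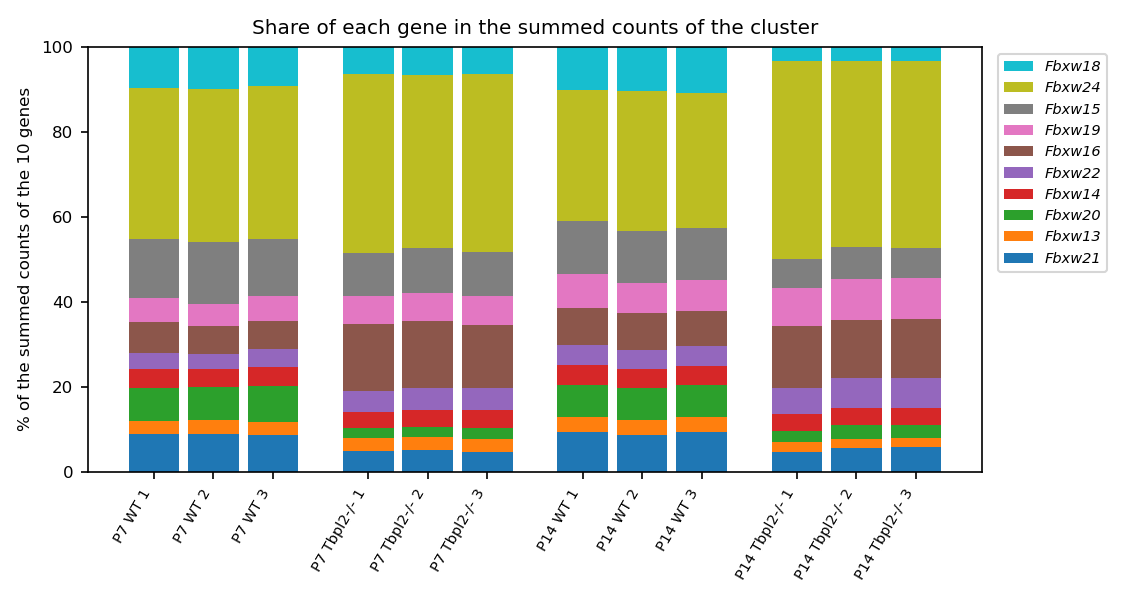
Share of each member in the summed counts of the 10 genes, in percent, with 1 stacked bar for each of the 12 libraries. Replicates of a group look alike, and *Fbxw24* and *Fbxw16* take more of the sum in Tbpl2-/- while *Fbxw18* takes 3.21 to 3.41% in P14 Tbpl2-/- against a mean of 10.4% in P14 WT.

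Between P7 and P14 most members rose relative to the rest of the library, in both genotypes. Whether new transcription or retained RNA lay behind a rise was not tested. In WT 7 of 10 were higher at P14 and 0 lower, against 26.8% higher and 23.4% lower of all tested genes, with a member median log2 fold change of 0.39 against 0.03. No member was lower in WT at an unadjusted p under 0.05, since all 10 estimates were above 0, and DESeq2 also called 0 lower. The largest rises were those of *Fbxw19* (0.74 ± 0.12, adjusted p = 0.000126), *Fbxw16* (0.62 ± 0.15, 0.00241) and *Fbxw22* (0.56 ± 0.11, 0.000618). *Fbxw15*, *Fbxw20* and *Fbxw24* did not pass, with values of 0.12, 0.24 and 0.14. The rises of *Fbxw21* (0.36 ± 0.11), *Fbxw14* (0.37 ± 0.12), *Fbxw13* (0.41 ± 0.13) and *Fbxw18* (0.43 ± 0.13) rested on the scaling, and 3 members were called higher with library size alone or with upper quartile factors.

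Of these smaller rises 3 also rested on single libraries. That of *Fbxw13* was lost without P14 WT replicate 2 (adjusted p = 0.0773) or P7 WT replicate 3 (0.0711), and that of *Fbxw18* without P14 WT replicate 2 (0.0538). That of *Fbxw14* was lost without P14 WT replicate 1 (0.0651), P14 WT replicate 2 (0.0821), P7 WT replicate 2 (0.0839) or P7 WT replicate 3 (0.0580). *Fbxw20* passed without P14 WT replicate 3 (0.0377). The number of members higher was 4 without P14 WT replicate 2.

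In Tbpl2-/- oocytes 7 of 10 members were higher at P14 and 1 was lower, against 18.4% and 15.3% of all tested genes, with a member median of 0.69 against 0.02. *Fbxw19* (1.11 ± 0.12, adjusted p = 6.87e-06) and *Fbxw22* (1.05 ± 0.11, 6.35e-06) were higher by more than 2-fold. *Fbxw20* (0.91 ± 0.12), *Fbxw21* (0.77 ± 0.11), *Fbxw24* (0.74 ± 0.13) and *Fbxw14* (0.64 ± 0.12) rose too. *Fbxw16* rose by 0.49 ± 0.15 (adjusted p = 0.0165), and lost the call without P14 Tbpl2-/- replicate 1 (0.0698) or P7 Tbpl2-/- replicate 3 (0.0553). *Fbxw13* and *Fbxw15*, both at 0.12, did not pass.

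*Fbxw18* was the member that was lower at P14 in the mutant, by a small margin. It fell by 0.34 ± 0.13 on the log2 scale (adjusted p = 0.0479), while it rose by 0.43 ± 0.13 in WT (0.0104). The fall was no longer called with RLE factors (0.0515), upper quartile factors (0.0557) or DESeq2 (0.0559). Leaving out any 1 of 7 libraries lost it as well, with adjusted p from 0.0580 to 0.202: P14 WT replicate 1, P14 Tbpl2-/- replicates 2 and 3, P7 WT replicate 2 and each of the 3 P7 Tbpl2-/- libraries. The estimate stayed below 0 in each of these.

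**Figure D4:**
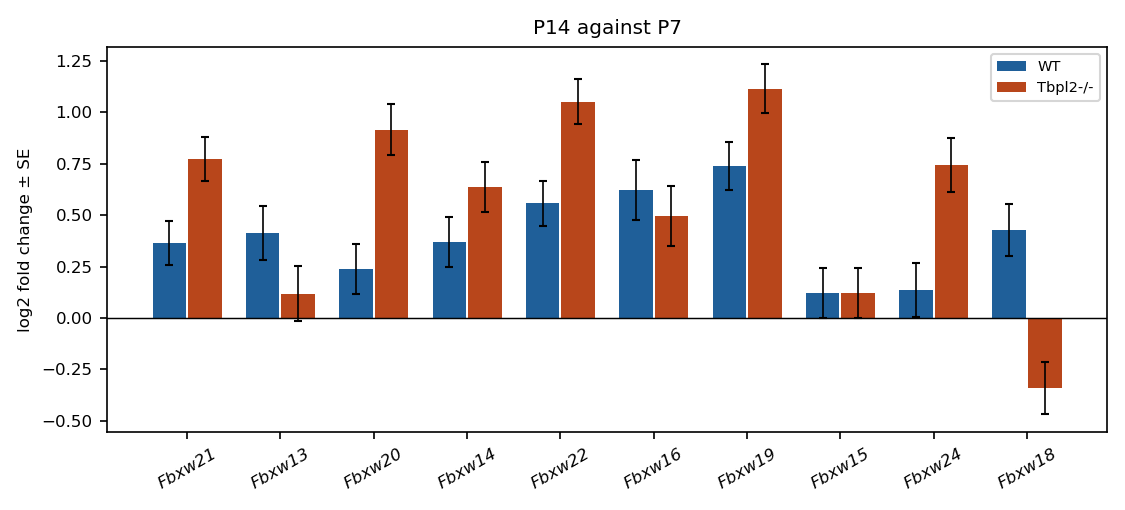
Log2 fold change of P14 against P7 for each member in WT and in Tbpl2-/-, with bars for the edgeR estimate and whiskers for its SE. The mutant bars are taller than the WT bars for *Fbxw20* (0.91 against 0.24), *Fbxw24* (0.74 against 0.14) and *Fbxw22* (1.05 against 0.56), and *Fbxw18* points down in the mutant alone.

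The other 5 Fbxw genes of the array moved with the members. All 5 were lower in Tbpl2-/- at both stages, with log2 fold changes from -2.92 to -1.65 at P14 and from -3.58 to -2.13 at P7. The share of all tested genes that were lower was 27.8% at P14 and 28.9% at P7. At P14 *Fbxw26* kept 13.1% of the WT mean and *Fbxw28* kept nearly the same, and the pseudogene *Fbxw23* kept 31.3%, *Fbxw25* 28.2% and *Fbxw27* 23.3%. *Fbxw23* and *Fbxw25* were the least abundant genes of the array, with 3473 ± 503 and 1941 ± 169 normalised counts in P14 WT. Along the chromosome, the first 5 genes (*Fbxw21*, *Fbxw13*, *Fbxw20*, *Fbxw14* and *Fbxw28*) kept 6.94 to 15.8% at P14 and the next 4 (*Fbxw22*, *Fbxw16*, *Fbxw19* and *Fbxw23*) kept 22.3 to 31.3%. In the rest of the array low and high values were mixed. *Fbxw15* kept 10.5% at P14 between *Fbxw23* and *Fbxw24*, which kept 31.3 and 25.4%, and *Fbxw18* and its neighbour *Fbxw26* kept 5.68 and 13.1% between *Fbxw25* and *Fbxw27*.

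**Figure D5:**
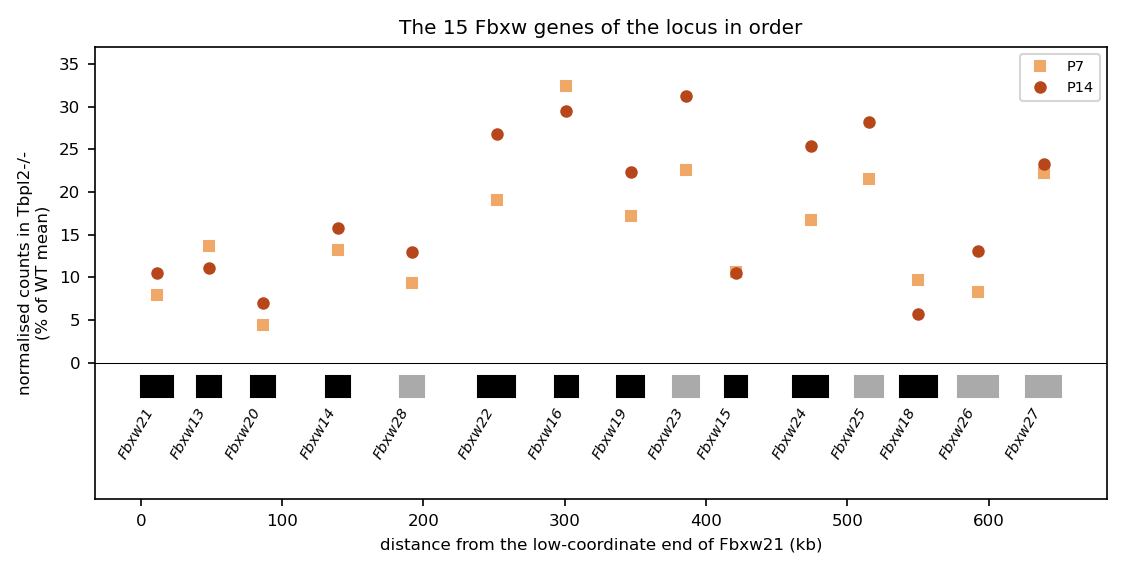
Mean normalised counts in Tbpl2-/- as a percentage of the WT mean for the 15 Fbxw genes, at the middle of each gene along the array (kb), with boxes to scale for the members (black) and the other genes (grey). The values run from 4.35% for *Fbxw20* at P7 to 32.4% for *Fbxw16* at P7. At P14 the first 5 genes on the left are all at 15.8% or less and the next 4 all at 22.3% or more.

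The listed genes of the SCF machinery went both ways at P14. Of 26 genes of the SCF core and its neddylation machinery, which attaches NEDD8 to cullins, 9 were lower, 6 higher and 11 did not pass at P14, with a median of 0.11, where 27.8% of all tested genes were lower and 29.9% higher. At P7 the counts were 10 lower, 4 higher and 12 not passing, with a median of -0.19, where 28.9% of all genes were lower and 30.5% higher. The 3 partners of the F-box protein in the ligase were all lower at P7, with log2 fold changes of -0.59 ± 0.13 for *Cul1* (adjusted p = 0.001), -0.41 ± 0.15 for *Rbx1* (0.0240) and -0.29 ± 0.11 for *Skp1a* (0.0332). At P14 *Rbx1* and *Skp1a*, which were singled out after their values had been seen, did not pass, at 0.23 and 0.13. *Cul1*, the scaffold of the ligase, went from 53982 normalised counts in P14 WT to 23329 in P14 Tbpl2-/- (log2 fold change -1.19 ± 0.13), and *Uba3*, a subunit of the NEDD8-activating enzyme, fell by 1.05 ± 0.10. *Rnf7*, a RING subunit that serves cullin ligases, rose by 1.49 ± 0.13 and *Dcun1d3*, a cofactor of cullin neddylation, by 0.75 ± 0.29.

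F-box genes elsewhere in the genome went both ways, as did all tested genes. Of all tested genes 27.8% were lower and 29.9% higher at P14, and 28.9% and 30.5% at P7. Of 11 F-box and WD40 genes outside the array 10 were in the table, and 4 were lower, 2 higher and 4 did not pass at P14, with a median of -0.31. At P7 3 were lower, 5 higher and 2 did not pass, with a median of 0.34. *Fbxw4* (-1.44 ± 0.12) and *Btrc*, the receptor for phosphorylated beta-catenin (-1.25 ± 0.12), fell most at P14, and *Fbxw2* (1.05 ± 0.23) and *Fbxw7*, the receptor for cyclin E (0.54 ± 0.21), rose. Of 20 other F-box genes 11 were lower, 5 higher and 4 did not pass at P14, and 8, 7 and 5 at P7. *Fbxo30* (-2.21 ± 0.18) and *Skp2*, a receptor for CDK inhibitors (-1.37 ± 0.16), fell most, and *Fbxo4* (1.74 ± 0.39) and *Fbxo31* (0.87 ± 0.12) rose. These values are log2 fold changes with SE at P14. *Fbxo4* was weakly expressed, at 43.0 normalised counts in P14 Tbpl2-/- and fewer in P14 WT.

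The 5 genes whose pattern over the 4 group means was most like that of *Fbxw24* lie outside the array. Likeness was measured as the root mean square difference in log2 CPM, the log2 of the count scaled to the library, after each gene was centred on its own mean, over 4 means of 3 libraries, for genes above 100 normalised counts. They were *Tcstv1* (0.0641), *Aspm*, a spindle pole protein (0.0771), *Meis2*, a homeobox transcription factor (0.0985), *Rgs2*, a regulator of G protein signalling (0.0989), and *Kbtbd6*, an adaptor of cullin ligases (0.116). *Aspm* had 28841, 5468, 33678 and 9149 normalised counts in WT and mutant at P7 and then in WT and mutant at P14, where *Fbxw24* had 110795, 18486, 121688 and 30889. Among the genes of the array *Fbxw25* (0.166), *Fbxw27* (0.180) and *Fbxw22* (0.200) were the closest to *Fbxw24*, and *Fbxw18* (0.838) and *Fbxw20* (0.955) were the farthest. The measure is a description with no test.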

How the data were processed

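Poly(A) RNA of 12 pools of oocytes was amplified, converted to libraries and sequenced as single-end reads. The authors trimmed reads with cutadapt, removed spike reads with bowtie2, aligned the rest to mm10 with STAR 2.7.0f and counted uniquely aligned reads per gene with HTSeq 0.9.1 in union mode. These counts were deposited per library and are the values tested here. The strand setting of the counting is not given in the sources used here, so reads of overlapping antisense genes cannot be told apart. The deposited normalised signal is the count over the DESeq2 1.22.2 size factor of each library, and group means and SDs come from that signal. The deposited log2 fold changes, test score and p-value columns hold the authors' own comparisons and were not used.

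Counts were tested with edgeR 4.0.16 (robust quasi-likelihood fit, TMM factors, filter on low counts by group, two-sided) under R 4.3.3 in 1 fit of 4 group means over 12 libraries, with 5 contrasts. The Benjamini-Hochberg adjustment ran over 17715 genes, with calls at 0.05 or less, and the SE of an estimate is its size over the root of the F statistic. The procedure was tested on simulated data. In these few genes were changed, evenly up and down and in P14 Tbpl2-/- alone. The simulation therefore cannot show how the scaling acts where many genes change, as here. The alternatives were 3 other scalings, DESeq2 1.42.0, no filter on low counts, a fit of the groups compared, the replicate number as a block and leaving out each of the 12 libraries. Stretches of 50 bases were sought on both strands of GENCODE vM21 transcripts (GRCm38) and not in the genome, which was not used here. Per kb values rest on the transcript length (a median) in that table. Amplified reads carry no molecular identifiers.

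The members and gene lists were chosen with earlier results of these data known. Named are all 10 members, at most 2 genes per list and direction with the largest P14 change at an adjusted p of 0.05 or less, the 5 genes most like the most abundant member (predicted, clone and pseudogene names left out), neighbours that passed the test and *Tbpl2*. *Fbxw12* was not matched in the table.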

Additional observations from a re-analysis of the deposited data

Results flagged for a closer look

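The genotype effect at P14 differed from that at P7 in 4 members by the test of the difference itself, edgeR's interaction term with Benjamini-Hochberg adjustment over 17715 genes. The difference in log2 fold change was 0.68 for *Fbxw20* (adjusted p = 0.0103), 0.61 for *Fbxw24* (0.0234) and 0.49 for *Fbxw22* (0.0261), where the loss was smaller at P14. It was -0.77 for *Fbxw18* (0.00642), where the loss was larger at P14. Over all tested genes 13.6% had a positive and 14.3% a negative difference past the same threshold. The call of *Fbxw22* was lost on leaving out either of 2 libraries, and that of *Fbxw24* on leaving out any of 3. Groups of 3 libraries are too small for a check of single values that stand apart.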

How the results depend on the processing

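The loss of all 10 members in Tbpl2-/- at P14 and at P7 kept its direction and its side of the threshold in each of the 190 values of either stage, over 7 other settings and 12 left-out libraries. In WT the number of members higher at P14 was 7, and 3 with library size alone or upper quartile factors, 4 with a fit of the groups compared, and 4 to 8 on leaving out 1 library. In Tbpl2-/- the number lower at P14 was 1, and 0 with RLE factors, upper quartile factors or DESeq2, and 0 to 1 on leaving out 1 library. The number with a positive interaction was 3, and 5 with library size alone or upper quartile factors, and 1 to 4 on leaving out 1 library. No value of a member changed sign as a called result, and the cause of these changes was not tested.

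With the replicate number as a block the counts were unchanged at 10 lower at P14, 10 lower at P7, 7 higher in WT, 7 higher and 1 lower in Tbpl2-/-, and 3 positive and 1 negative interactions. Deviations of libraries of the 2 genotypes with the same number had correlations of -0.0916 to 0.200 at P14 and -0.0851 to 0.0255 at P7. With different numbers the correlations were -0.233 to 0.268 at P14 and -0.0771 to 0.110 at P7. With so few libraries per group these values cannot decide whether the numbers pair the pools.

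With 40-base stretches the share in no other gene was 35.4% for *Fbxw14*, 70.2% for *Fbxw16*, 78.4% for *Fbxw15*, 81.3% for *Fbxw22*, 87.9% for *Fbxw13*, 88.6% for *Fbxw24*, 89.1% for *Fbxw21*, 89.3% for *Fbxw20*, 90.2% for *Fbxw19* and 90.3% for *Fbxw18*. In the wider window of 100 bases before the start TATAA was in 10.2% of all promoters and in 0 of the 8 members, and TTTAAAA, added after seeing the data, in 2.74% and in 7 of the 8. A loss shared by most transcripts is removed by the size factors and cannot be seen here.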

Other observations

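The genes around the array did not share its course. Between the first and last member lie 8 other annotated genes outside the Fbxw family, of which 3 passed the filter on low counts, and 2 were higher in Tbpl2-/- at both stages. These were the antisense gene Gm42756, with 21.2 normalised counts in P14 WT and 56.7 in P14 Tbpl2-/- (log2 fold change 1.43 ± 0.35, SE), and Gm42755, with 1.42 and 7.57. Gm42755 was thus counted in very few reads. Of the 5 nearest protein-coding genes on either side, 10 in all, 8 were tested. At P14 the test called 3 lower and 3 higher, and at P7 edgeR called 3 higher and none lower, also at an unadjusted p under 0.05. Sets of 3 and 8 tested genes are too small to be told apart from the shares of all genes. *Plxnb1*, a semaphorin receptor (-0.80 ± 0.23), *Cdc25a*, a phosphatase that activates cyclin-dependent kinases (-0.55 ± 0.10), and *Map4*, a microtubule-associated protein (-0.34 ± 0.14), were lower at P14. *Atrip*, a partner of the checkpoint kinase ATR (0.84 ± 0.14), *Tma7* (0.92 ± 0.30) and *Nme6* (0.46 ± 0.13) were higher. At P7 *Atrip* (1.17 ± 0.14), *Ccdc51* (0.77 ± 0.19) and *Nme6* (0.49 ± 0.12) were higher.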
